A study of Mus musculus with 12 samples.

Results

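Transporters for glutamate and GABA were followed in the cortical transcriptome of mice that had engaged in binge-like drinking. The genes were chosen by symbol from the count table, and all 8 symbols sought were found among its 33024. They are the vesicular glutamate transporters Slc17a6, Slc17a7 and Slc17a8, the vesicular GABA transporter Slc32a1, the plasma membrane GABA transporter Slc6a11 and the plasma membrane glutamate transporters Slc1a1, Slc1a2 and Slc1a3. All 8 passed edgeR's filter on low counts and were tested. The libraries came from cortex of C57BL/6 mice, 7 in the Control group, which received vehicle (water in both bottles), and 5 in the EtOH group, which chose nightly between water and diluted ethanol. Drinking began in adolescence, lasted for several weeks and was followed by a period of abstinence before the tissue was taken. All were wild-type mice perfused with saline before dissection, and each library was 1 mouse. The sex of the mice is not analysed here.

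Neurons release glutamate or GABA from vesicles that are filled by transporters in the vesicle membrane, so the vesicular transporter a neuron makes largely sets which of these transmitters it releases. Slc17a7 encodes VGLUT1, the main vesicular glutamate transporter of cortical and hippocampal pyramidal neurons, while Slc17a6 encodes VGLUT2, which prevails in the thalamus and other subcortical nuclei. Slc17a8 encodes VGLUT3, found in small populations such as cholinergic interneurons of the striatum and serotonergic neurons, and Slc32a1 encodes VGAT, which loads GABA and glycine in all inhibitory neurons. Released transmitter is cleared at the plasma membrane, glutamate mostly into astrocytes by GLT-1 (Slc1a2) and GLAST (Slc1a3) and into neurons by EAAC1 (Slc1a1), and GABA partly into astrocytes by GAT-3 (Slc6a11).

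Total counts lay between 31768076 and 40690223 in the Control mice and between 32048723 and 42183029 in the EtOH mice, which places a floor of 3 counts at no more than 0.0944 CPM, the unit of counts scaled to a common library size. Every one of the 9 marker genes of cortical excitatory neurons was detected, and their summed level lay between 657 and 837 CPM in the Control and between 751 and 868 CPM in the EtOH mice. Markers of neighbouring brain regions differed between the groups. All 11 striatal spiny neuron markers were lower and all 8 hippocampal neuron markers higher in the EtOH mice, with sums of 1001 to 2396 CPM (Control) against 236 to 304 CPM (EtOH) and of 29.1 to 36.5 CPM against 138 to 183 CPM. Choroid plexus markers ranged from 6.06 to 16.2 CPM in the Control and from 11.7 to 975 CPM in the EtOH mice. In such bulk tissue, fewer cells of a type and less RNA per cell cannot be told apart, nor can either be told apart from a difference between the groups in the piece of tissue taken.

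**Figure D1:**
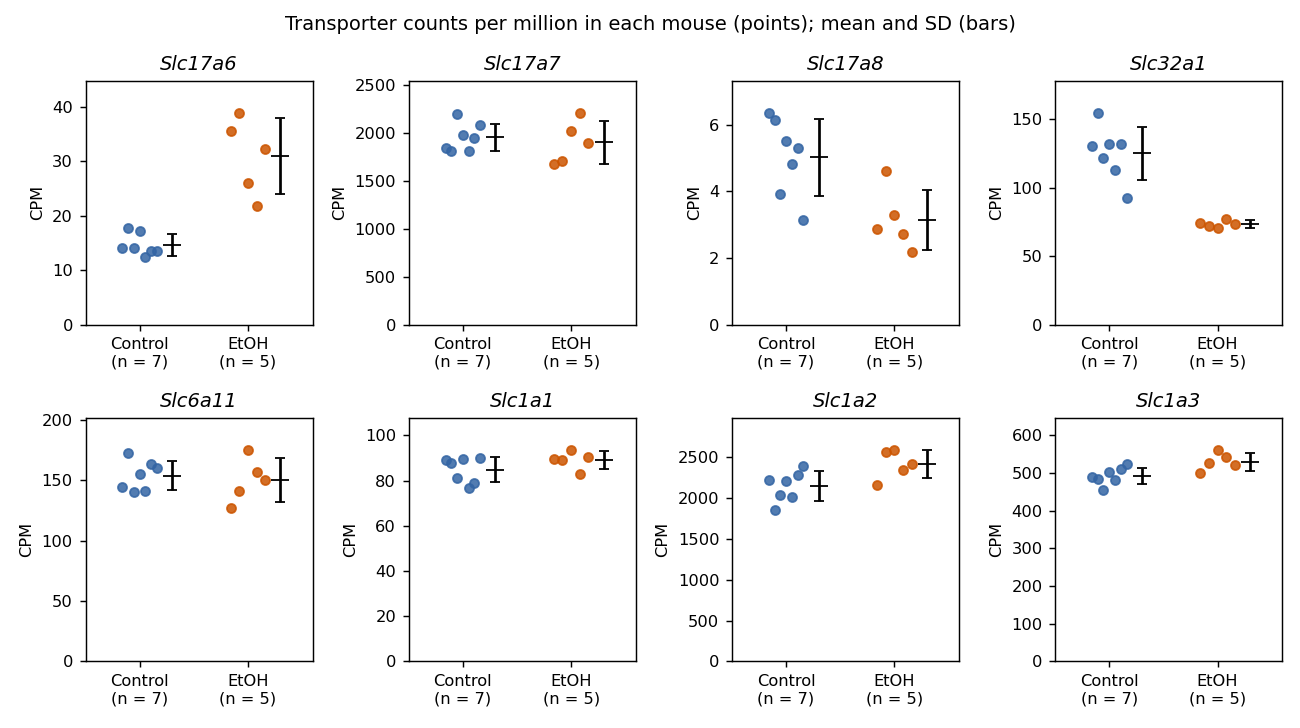
Normalised level (CPM, linear axis from 0) of each of the 8 transporter genes in every mouse, with the mean and SD of 7 Control and 5 EtOH mice. Slc17a6 lay higher and Slc32a1 lower in every EtOH mouse than in every Control mouse, whereas the groups overlapped for the other 6 genes.

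The main change was in the vesicular transporters that are not the principal one of the cortex. Slc17a6 rose 2.11-fold in the EtOH mice, Slc32a1 fell to 0.588 and Slc17a8 to 0.624 of the Control level, and none of the other 5 genes passed the test. A gene was called different at an adjusted p under 0.05 with a log2 fold change above 0.5 in size (edgeR quasi-likelihood test with Benjamini-Hochberg adjustment over 16059 genes, 5 against 7 mice). By this rule 1 transporter was called higher and 2 were called lower, 3 of 8, where 4.2% of all genes tested were called higher, 4.09% lower and 8.29% in either direction. All 3 calls were kept in each of the 12 fits with 1 mouse left out. The median log2 fold change was 0.02 over the 8 genes and 7.2e-05 over all genes.

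Slc17a6 (ENSMUSG00000030500) lies on chromosome 7 of GRCm39 from 51271434 to 51320867. Its level in the Control mice ran from 12.5 to 17.8 CPM with a median of 14.0 CPM. The EtOH mice had 35.6, 38.9, 26.1, 21.9 and 32.2 CPM, replicates 1 to 5 in turn. Every EtOH mouse thus lay above every Control mouse (groups were apart in this direction for 4.84% of all genes tested, and in either direction for 9.81%), and the EtOH mice also spread more widely. The means were 30.9 ± 6.94 CPM (SD, n = 5) against 14.6 ± 2.01 CPM (SD, n = 7). This gave 1.08 ± 0.12 (SE) on the log2 scale, with an adjusted p of 8.34e-06 in edgeR. With any 1 mouse left out the estimate stayed between 0.98 and 1.18.

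Slc32a1 (ENSMUSG00000037771) lies on chromosome 2 from 158452605 to 158464883. The Control mice ranged from 92.3 to 155 CPM with a median of 130 CPM. The values of the EtOH mice were 74.1, 72.4, 70.4, 77.6 and 73.4 CPM. The EtOH values were all below the lowest Control value, as for 4.96% of all genes tested, and they varied far less among themselves than the Control values did. Their mean was 73.6 ± 2.64 CPM (SD, n = 5) against 125 ± 19.3 CPM (SD, n = 7). This gave -0.77 ± 0.09 (SE) on the log2 scale, with an adjusted p of 1.16e-05 in edgeR. Annotated exons of Gm14204 and Gm14205 overlap those of Slc32a1 on the opposite strand. Whether the counting used strand is not given in the sources used here, so reads from these partners cannot be told apart. Gm14204 had means of 10.05 CPM (Control) and 6.84 CPM (EtOH) and was itself lower, with a log2 change of -0.56 (adjusted p = 0.00285 in edgeR), and Gm14205 was not analysed here. Slc17a6, Slc17a7, Slc1a1, Slc1a2 and Slc1a3 also overlap annotated exons on the opposite strand, and of those partners that were counted, Spata6l at Slc1a1 had 4.30 CPM (Control) and 4.37 CPM (EtOH) and Gm13872 at Slc1a2 at most 3 counts in a mouse.

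Slc17a8 (ENSMUSG00000019935), on chromosome 10 from 89409882 to 89457326, was the least abundant of the 8 genes. In the Control mice it ran from 3.14 to 6.36 CPM with a median of 5.29 CPM. EtOH mice followed with 2.87, 4.60, 3.28, 2.73 and 2.19 CPM. All 5 EtOH mice lay below the Control mean, but only 3 of 5 lay below the lowest Control mouse, so the groups overlapped. The means were 3.14 ± 0.909 CPM (SD, n = 5) against 5.02 ± 1.16 CPM (SD, n = 7). This gave -0.68 ± 0.19 (SE) on the log2 scale, with an adjusted p of 0.0157 in edgeR. These levels rest on raw counts between 72 and 203 per mouse, the lowest of the transporters called.

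The sequence upstream of the start of the canonical transcript is shown for these 3 genes, since they are the ones whose level differed. Each run holds the 250 bases before the start, 5′ to 3′ along the gene's own strand, from the GRCm39 assembly with Gencode vM39 starts. Capitals mark matches, on either strand, to the TATA box TATAAA, the GC box GGGCGG, the cyclic AMP response element TGACGTCA or the E-box CAGCTG. These motifs did not overlap each other in the windows shown.
Slc17a6, chr7:51271184-51271433, plus strand: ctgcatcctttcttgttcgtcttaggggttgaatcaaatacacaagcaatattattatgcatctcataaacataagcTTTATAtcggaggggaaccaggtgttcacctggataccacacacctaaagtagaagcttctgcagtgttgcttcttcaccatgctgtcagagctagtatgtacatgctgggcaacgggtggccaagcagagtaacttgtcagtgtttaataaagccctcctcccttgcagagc
Slc17a8, chr10:89457327-89457576, minus strand: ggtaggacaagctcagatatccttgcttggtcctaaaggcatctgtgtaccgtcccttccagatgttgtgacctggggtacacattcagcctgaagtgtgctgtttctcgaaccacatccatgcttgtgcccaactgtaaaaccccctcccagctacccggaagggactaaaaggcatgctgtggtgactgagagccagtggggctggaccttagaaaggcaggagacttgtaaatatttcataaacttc
Slc32a1, chr2:158452355-158452604, plus strand: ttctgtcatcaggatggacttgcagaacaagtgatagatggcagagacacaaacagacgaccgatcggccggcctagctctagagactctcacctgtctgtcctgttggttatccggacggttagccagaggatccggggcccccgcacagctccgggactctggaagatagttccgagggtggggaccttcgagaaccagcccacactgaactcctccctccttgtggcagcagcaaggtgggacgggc

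Among these 3 windows, only that of Slc17a6 held a match, 1 TATA box in reverse orientation that begins 173 bases upstream of the start. Slc1a3, which was not called, also had 1 match to the TATA box, 176 bases upstream, and the same share of G and C (44.8%). GC boxes were found at Slc17a7, Slc6a11, Slc1a1 and Slc1a3, none of them called. Over 21770 protein-coding promoters of the same length, 11.9% held the TATA box, 36.3% the GC box, 1.69% the cyclic AMP response element and 11.9% the E-box. The windows differed in base composition, with 44.8% G and C for Slc17a6, 50.4% for Slc17a8 and 58.8% for Slc32a1, where the median promoter had 53.2%. Slc32a1 held 12 CG dinucleotides, and Slc17a6 and Slc17a8 held 3 each. The absence of a match says only that these letters are not in the window.

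Slc17a7 (ENSMUSG00000070570), on chromosome 7 from 44813305 to 44825644, carried nearly all of the vesicular glutamate transporter message. Its level ranged from 1817 to 2197 CPM with a median of 1947 CPM in the Control mice. Among EtOH mice the values were 1682, 1706, 2027, 2213 and 1903 CPM. The groups overlapped, with EtOH mice both above and below the Control range. The log2 fold change was -0.04 (95% interval -0.18 to 0.10, edgeR adjusted p = 0.742), and its sign turned, to 0.0089, without EtOH replicate 1.

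The balance between VGLUT1 and VGLUT2 message was also taken within each library, where it does not depend on library size. For each Slc17a6 count, the Control mice had between 102 and 157 counts of Slc17a7, with a median of 144. The EtOH mice had 47.2, 43.9, 77.7, 101 and 59.1. Every EtOH mouse was below every Control mouse, with EtOH replicate 4 close to the lowest Control value, and the difference in log2 ratio was -1.10. Slc17a6 made up 1.64% ± 0.525 (SD, n = 5) of the counts of the 3 vesicular glutamate transporters in the EtOH and 0.746% ± 0.124 (SD, n = 7) in the Control mice. Slc17a8 made up 0.165% ± 0.0596 (SD, n = 5) and 0.258% ± 0.0720 (SD, n = 7). The shift therefore concerned a small part of the vesicular glutamate transporter message, of which Slc17a7 made up 98.2% in the EtOH and 99.0% in the Control mice.

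The ratio of Slc32a1 to the sum of the 3 vesicular glutamate transporters compares the loading of GABA with that of glutamate at the message level. It ranged from 0.0440 to 0.0841 in the Control mice, with a median of 0.0660. In the EtOH mice it was 0.0431, 0.0414, 0.0342, 0.0347 and 0.0379. The groups did not overlap, but the highest EtOH value lay just below that of Control replicate 7, the lowest of its group.

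**Figure D2:**
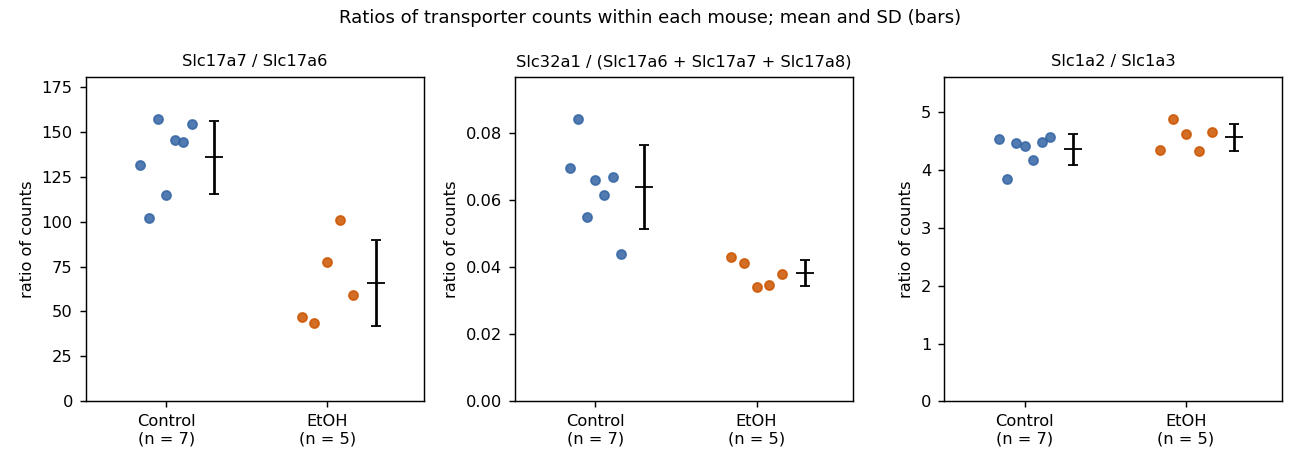
Ratios of raw counts within each mouse (linear axes from 0), with the mean and SD of 7 Control and 5 EtOH mice. The EtOH mice lay below all Control mice for Slc17a7 over Slc17a6 (43.9 to 101 against 102 to 157) and for Slc32a1 over the vesicular glutamate transporters, and overlapped with them for Slc1a2 over Slc1a3.

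None of the plasma membrane transporters was called. Slc1a2 (ENSMUSG00000005089, chromosome 2 from 102488574 to 102621129), which carries most glutamate uptake of the forebrain, ranged from 1861 to 2393 CPM with a median of 2214 CPM in the Control mice. For the EtOH mice they were 2166, 2570, 2596, 2341 and 2425 CPM. All 5 EtOH mice were above the Control mean and 3 of 5 were above the highest Control mouse. The log2 fold change was 0.17 (95% interval 0.05 to 0.30, edgeR adjusted p = 0.0603), which did not pass the threshold of 0.05. Over the alternatives the adjusted p ran from 0.0280 to 0.156, with 0.0424 in DESeq2, and the change was below the minimum of 0.5 in each of them.

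Slc1a3 (ENSMUSG00000005360, chromosome 15 from 8663604 to 8741595), the other glutamate transporter of astrocytes, ranged from 455 to 523 CPM with a median of 490 CPM in the Control mice. Values in the EtOH mice were 499, 527, 562, 541 and 520 CPM. As for Slc1a2, all 5 were above the Control mean and 3 of 5 above the highest Control mouse, with a log2 fold change of 0.11 (95% interval 0.01 to 0.20, edgeR adjusted p = 0.117). The ratio of Slc1a2 to Slc1a3 was 4.57 ± 0.233 (SD, n = 5) against 4.36 ± 0.261 (SD, n = 7), and the groups overlapped. Of 10 other astrocyte genes, 1 was called higher, the intermediate filament gene Gfap (log2 fold change 0.77, edgeR adjusted p = 3.15e-05), and none lower. Without a minimum fold change, 4 were higher and 0 lower at an adjusted p under 0.05 in edgeR, beside 1947 and 1863 of all 16059 genes tested. The counts were the same at an unadjusted p under 0.05, where 18.6% of all genes tested were higher and 17.9% lower. The summed level of these 10 genes was 1768 to 2033 CPM in the Control and 1950 to 2208 CPM in the EtOH mice, and its part in the levels of Slc1a2 and Slc1a3 was not tested.

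Slc1a1 (ENSMUSG00000024935, chromosome 19 from 28812449 to 28891360), the neuronal glutamate transporter, ranged from 76.7 to 90.1 CPM in the Control mice with a median of 87.6 CPM. EtOH mice reached 89.4, 89.3, 93.7, 83.1 and 90.6 CPM. These values overlapped with those of the Control mice, with a log2 fold change of 0.07 (95% interval -0.03 to 0.18, edgeR adjusted p = 0.343). Slc6a11 (ENSMUSG00000030307, chromosome 6 from 114108200 to 114226913), the GABA transporter of astrocytes, ranged from 141 to 172 CPM with a median of 155 CPM in the Control mice. The EtOH mice had 127, 141, 176, 157 and 150 CPM, with both the lowest and the highest value of all mice among them. Its log2 fold change was -0.04 (95% interval -0.18 to 0.11, edgeR adjusted p = 0.764). The intervals for Slc17a7, Slc1a1 and Slc6a11 leave room only for changes well under the minimum of 0.5.

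**Figure D3:**
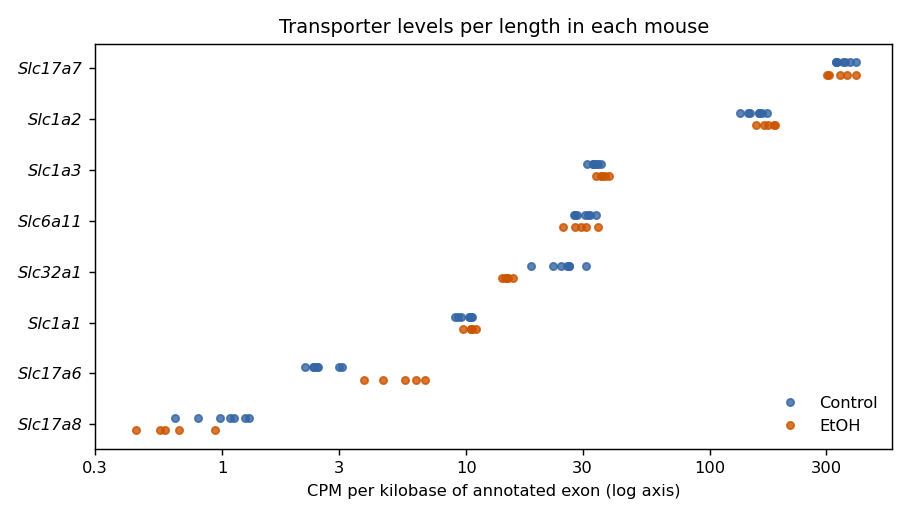
Level per length (CPM per kilobase of annotated exon, log axis) of the 8 transporters in every Control and EtOH mouse, ordered by the Control mean. The order of the group means was the same in both groups, from Slc17a7 at 353 (Control) and 344 (EtOH) down to Slc17a8 at 1.02 and 0.636.

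Levels can be compared between genes only per length, and were scaled by the union of annotated exons. On this scale (CPM per kilobase, Control mice, n = 7) Slc17a7 was the most abundant with 353 ± 26.0 (SD), followed by Slc1a2 with 153 ± 13.1 (SD). Slc1a3 had 33.7 (31.2 to 35.9), Slc6a11 30.4 ± 2.40 (SD) and Slc32a1 25.0 ± 3.85 (SD). In the Control mice the values of Slc6a11 (27.8 to 34.1) overlapped with those of both Slc1a3 and Slc32a1 (18.4 to 30.9), whereas in the EtOH mice Slc32a1 (at most 15.5) lay clear of Slc6a11 (at least 25.1). Slc1a1 had 9.90 ± 0.649 (SD), Slc17a6 2.56 ± 0.351 (SD) and Slc17a8 1.02 ± 0.236 (SD), each apart from its neighbours. In the EtOH mice Slc17a6 had 5.41 ± 1.21 (SD, n = 5), still below every value of Slc1a1. With the longest annotated transcript as the length, Slc32a1 and Slc6a11 changed places in the Control mice.

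Genes that make, recycle or break down glutamate and GABA were set beside the transporters, from a list of 25, of which 24 were tested. The list held the other carriers of the plasma membrane, glutamine carriers, synthetic and catabolic enzymes and mitochondrial carriers. Of these, 0 were called higher and 2 were called lower in edgeR, Gad2 and Slc1a5, and DESeq2 gave the same counts. With 8.29% of all genes called in either direction, 2 of 24 is near the background. The summed level of the list, to which Glul contributed most (1187 CPM in the EtOH and 1537 CPM in the Control mice on average), was lower in every EtOH mouse (4627 to 4763 CPM) than in every Control mouse (4981 to 5492 CPM). This separation rested on Glul: with it left out of the sum, EtOH replicates 3 and 4 lay above Control replicate 7, so the groups overlapped. At an unadjusted p under 0.05, 3 genes of the list were higher and 6 lower, beside 18.6% and 17.9% of all genes. Without a minimum fold change 7 of 24 passed an adjusted p under 0.05, 1 higher and 6 lower, where 23.7% of all genes did. The median log2 fold change of the list was -0.04.

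Among the synthetic enzymes of GABA, Gad2, which encodes the synaptic glutamate decarboxylase GAD65, fell from 241 ± 42.4 CPM (SD, n = 7) to 156 ± 7.13 CPM (SD, n = 5). On the log2 scale this was -0.63 ± 0.10 (SE), at an adjusted p of 0.000288 in edgeR. Gad1, which encodes GAD67, had 397 ± 44.7 CPM (SD, n = 7) against 321 ± 12.8 CPM (SD, n = 5). Its log2 fold change of -0.31 passed the adjusted p (edgeR, 0.00397) but not the minimum fold change. All EtOH mice lay below all Control mice for both genes, as they did for Slc32a1 with its log2 fold change of -0.77. The differences between these 3 genes were not tested. As with Slc32a1, the Control mice with the lowest and the highest Gad2 (replicate 7 with 170 CPM and replicate 2 with 292 CPM) were those with the lowest and the highest sum of striatal markers (1001 and 2396 CPM). Gad1 was also highest in replicate 2 (478 CPM) but lowest in replicate 3 (342 CPM). The part of striatal message, of which all 11 markers were lower in the EtOH mice, in the differences of Gad2 and Gad1 was not tested.

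In the glutamine cycle, Glul, the astrocytic glutamine synthetase, had a log2 change of -0.37 (adjusted p = 0.000849 in edgeR), and Slc38a3, a glutamine exporter of astrocytes, one of -0.41 (edgeR adjusted p = 0.000672). Both were thus lower by the adjusted p alone, and the EtOH mice lay below all Control mice for Slc38a3. Slc7a11, the cystine/glutamate exchanger, was the 1 gene of the list higher by the adjusted p alone, with a log2 change of 0.46 (adjusted p = 0.00251 in edgeR). Without Control replicate 6 or EtOH replicate 2 it reached 0.51 and 0.54 and was called. Slc1a5, a carrier of neutral amino acids, was low, with 2.88 ± 0.638 CPM (SD, n = 5) against 4.11 ± 0.687 CPM (SD, n = 7), a log2 change of -0.51 (adjusted p = 0.0251 in edgeR). Its call was lost without Control replicate 3 (-0.49), Control replicate 5 (-0.45), EtOH replicate 2 (-0.42) or EtOH replicate 4 (-0.46).

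**Figure D4:**
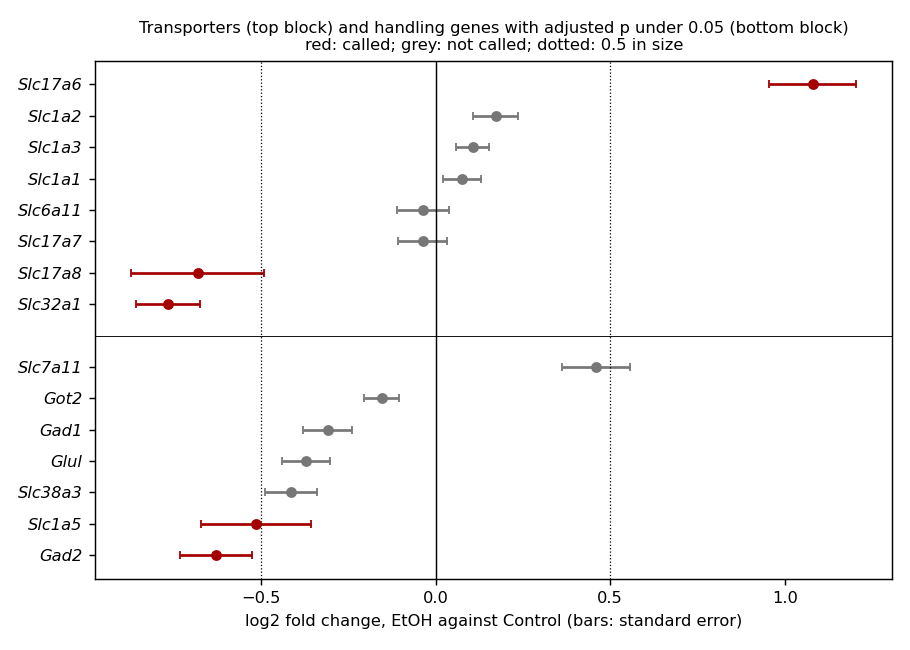
Log2 fold change of EtOH against Control mice (edgeR, bars show the standard error) for the 8 transporters in the top block and the 7 glutamate and GABA handling genes with an adjusted p under 0.05 in the bottom block, with called genes in red and dotted lines at 0.5 in size. Slc17a6 stands to the right at 1.08, and Slc17a8, Slc32a1, Gad2 and Slc1a5 lie beyond the left line.

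Since the markers of other regions differed between the groups, their levels are given beside the 3 transporters that changed. Striatal spiny neurons are GABAergic and use Slc32a1. The sum of 11 striatal markers was 1001 CPM in Control replicate 7 and 2396 CPM in Control replicate 2, which were also the Control mice with the lowest and the highest level of Slc32a1. Of the 7 Control mice, 5 had the same rank for both measures, whereas 0 of the 5 EtOH mice did, in which the striatal sum was 236 to 304 CPM. Over the 12 mice, after the group means had been removed, the genes most like Slc32a1 among 14165 genes of at least 1 CPM were Ppp1r1b (Pearson's r = 0.97) and Pde1b (r = 0.96). Slc32a1 varied far more in the Control (SD 19.3 CPM) than in the EtOH mice (SD 2.64 CPM), so the Control mice weigh most in these correlations. Ppp1r1b encodes DARPP-32 of spiny neurons and is itself in the striatal list, and Pde1b encodes a phosphodiesterase abundant in striatum. None of 7 cortical interneuron markers was called in either direction by edgeR, among them Pvalb, Sst and Vip. At an adjusted p under 0.05, 3 of the 7 were higher, as were 1947 of all 16059 genes tested. Pvalb, Sst and Vip were lower at an unadjusted p under 0.05, as were 17.9% of all genes. The sum of the 7 was 301 to 401 CPM in the Control and 311 to 350 CPM in the EtOH mice. The part of striatal message in the difference of Slc32a1 was not tested.

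Slc17a8 was set beside 4 markers of cholinergic neurons, a list chosen after the values had been seen. All 4 were called lower, and their sum was 7.76 to 24.6 CPM in the Control and 0.835 to 1.74 CPM in the EtOH mice. Of the 7 Control mice, 3 had the same rank for the sum and for Slc17a8, among them replicate 7, the lowest in both, and of the 5 EtOH mice 2 did. In the EtOH mice Slc17a8 was still detected in every mouse, with at least 72 counts. Markers of serotonergic neurons, also chosen after the values had been seen, were low, with a sum of at most 1.56 CPM in any mouse. Of these 3 genes, Fev and Slc6a4 did not pass the filter, and Tph2, which had 1.05 ± 0.386 CPM (SD, n = 5) against 0.644 ± 0.289 CPM (SD, n = 7), did not pass the test (log2 change 0.70, adjusted p = 0.137 in edgeR). The part of cholinergic neurons in the difference of Slc17a8 was not tested. The gene most like Slc17a8 after removal of group means was Sema3e (r = 0.95), followed by Tstd3 (r = 0.91). Between the groups Sema3e differed in the opposite direction to Slc17a8, with a log2 change of 0.46 (adjusted p = 0.000989 in edgeR), and Tstd3 did not pass the test (-0.18, adjusted p = 0.128).

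For Slc17a6, the summed markers of thalamic neurons, the region in which VGLUT2 prevails, were not higher. The sum was 61.2 to 85.3 CPM in the Control and 48.6 to 57.1 CPM in the EtOH mice. Zic1 made up its largest part, with means of 23.4 CPM (Control) and 10.8 CPM (EtOH). Of the 9 genes, 3 were called lower, Tnnt1, Synpo2 and Zic1, and 0 higher (5 and 1 at an unadjusted p under 0.05). By the adjusted p alone Rgs16 was higher (0.37) and Ramp3 lower (-0.36, edgeR adjusted p = 0.0352 and 0.0460). Tcf7l2, Lef1, Prkcd and Slitrk6 did not pass the test. The hippocampal list was higher in all EtOH mice, and EtOH replicate 2 had the highest value of both the list (183 CPM) and Slc17a6. EtOH replicate 2 was also the only 1 of the 12 mice with the same rank for both measures within its group. Of the 9 cortical excitatory neuron markers, 2 were called higher, Fezf2 with a log2 fold change of 0.60 and Tshz2, which is prominent in the retrosplenial cortex, with 1.72 (edgeR adjusted p = 0.000100 and 2.90e-07). Without a minimum fold change, 5 of the 9 were higher and 2 lower at an adjusted p under 0.05, the latter being Tbr1 (-0.40, adjusted p = 0.00222 in edgeR) and Slc30a3 (-0.25, adjusted p = 0.0215). By the same measure 1947 of all 16059 genes tested were higher and 1863 lower. The part of any of these regions in the difference of Slc17a6 was not tested. The genes most like Slc17a6 after removal of group means were Fancf (r = 0.94) and E030003E18Rik (r = 0.91), neither of which passed the test (edgeR adjusted p = 0.880 and 0.201).

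**Figure D5:**
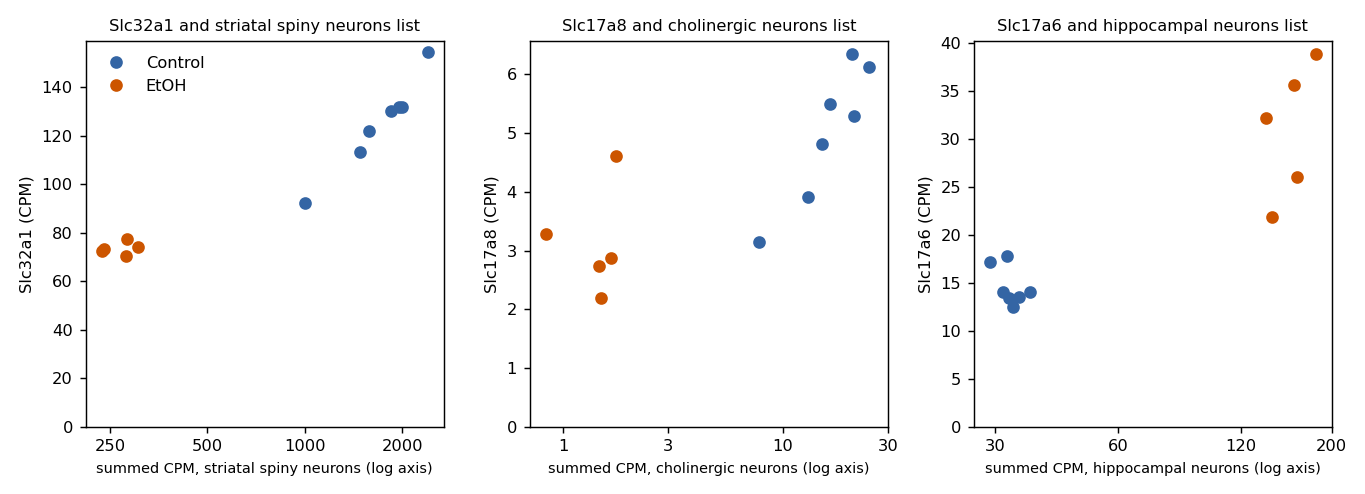
Level of Slc32a1, Slc17a8 and Slc17a6 (CPM, linear axis) against the summed level of striatal, cholinergic and hippocampal neuron markers (CPM, log axis) in every mouse. The Control mice with the lowest and highest striatal sum also have the lowest and highest Slc32a1 (92.3 and 155 CPM), while the 5 EtOH mice lie together at 70.4 to 77.6 CPM.

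Among the other transporters, the genes most alike over the 12 mice were Slc38a3 for Slc6a11 (r = 0.96), Ubp1 for Slc1a2 (r = 0.94), Gpbp1l1 for Slc1a3 (r = 0.93), CK137956 for Slc17a7 (r = 0.93) and Aftph for Slc1a1 (r = 0.92). Slc38a3 and Slc6a11 are both known from astrocytes. Between the groups, CK137956 had a log2 change of -1.12 (adjusted p = 0.00127 in edgeR), Slc38a3 one of -0.41 (adjusted p = 0.000672) and Ubp1 one of 0.29 (adjusted p = 0.00171), beside Slc17a7, Slc6a11 and Slc1a2, which did not pass the test, and neither Gpbp1l1 nor Aftph passed it. These correlations were the highest of 14165 for each gene over only 12 mice, and are given as a description. A difference between mice in depth or dissection could move many genes of a library together, which was not tested.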

How the data were processed

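The authors had RNA of mouse cortex sequenced by BGI, checked reads with FastQC 0.11.9, aligned them to GRCm39 with STAR and counted them on genes with featureCounts. The authors deposited expected counts per gene symbol, not normalized, for 12 mice. In 61 symbols, none of them a transporter reported here, the values were not whole, and all were rounded. Strand settings are not given in the sources used here.

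Groups came from the sample titles. Genes passing edgeR's filterByExpr were normalized with TMM and compared with edgeR's quasi-likelihood test (R 4.3.3, edgeR 4.0.16), with the thresholds given above (0.05 for the adjusted p, 0.5 for the log2 fold change). The standard error is the log2 fold change divided by the square root of F, and intervals are normal. CPM uses TMM library sizes. The fits were tested on simulated data. Alternatives were DESeq2 1.42.0, limma 3.58.1 voom, other factors, filters and minimum fold changes, the replicate block and each mouse left out.

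The transporters and lists were chosen with earlier results of these data known. The named genes were all transporters, the handling genes called plus Glul, Gad1, Gad2 and others not reported here, the marker lists, and for each transporter the 2 genes most correlated over the 12 mice. Other genes were named, and counts at an unadjusted p added, after values were seen. Nothing in the labels tells whether mice shared a litter or cage. The p-values treat the mice as independent and would be too small if litter or cage made mice alike, and intervals cover no dissection error. Libraries within a group differed by more than counting noise (chi-square divided by its degrees of freedom at least 7.84).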

Additional observations from a re-analysis of the deposited data

How the results depend on the processing

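With the minimum log2 fold change of 0.5, the direction and the call of Slc17a6, Slc32a1 and Slc17a8 were the same under DESeq2, voom, other factors and filters, the replicate block, each mouse left out and, an alternative chosen after seeing the data, without the deepest library of each group. The adjusted p of Slc17a8 lay between 0.00273 and 0.0452 over these. The count of 3 transporters called was 3 throughout, except 1, Slc17a6, with a minimum log2 fold change of 1. Without EtOH replicate 1 the sign turned for Slc17a7 (0.0089, range over mice left out -0.10 to 0.0089) and for Slc6a11 (0.024, range -0.10 to 0.024), which was also 0.0053 without the deepest libraries. Neither was called. Of the handling genes, 2 called became 7 without a minimum fold change, 0 with a minimum of 1, 1 without the deepest libraries, and 1 to 3 with 1 mouse left out, all in edgeR. Over all genes, 1331 calls became 3810 and 524 under the same 2 minimums. Of 8 transporters, 6 kept their rank by level with the longest transcript as length. Replicate numbers were not paired: deviations of same-numbered mice correlated between -0.11 and 0.02, and the replicate block called 3 transporters and 3 handling genes, Slc7a11 (0.51) besides Gad2 and Slc1a5. The cause of these changes was not tested. Depth gave Slc17a8, the lowest of the called transporters, 72 counts or more in each mouse.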

Other observations

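Among the handling genes, carriers best known outside the cortical neuropil were low. Slc6a13, the GABA transporter GAT-2 of meninges and vessels, had 7.18 ± 1.89 CPM (SD, n = 5) in EtOH against 7.86 ± 2.17 CPM (SD, n = 7) in Control mice, a log2 change of -0.13 (adjusted p = 0.664 in edgeR). Slc6a12, the betaine and GABA carrier BGT-1, was near 1 CPM in both groups, with 0.948 ± 0.305 CPM (SD, n = 5) against 0.989 ± 0.404 CPM (SD, n = 7). Slc1a6, the glutamate transporter EAAT4 that is best known from Purkinje cells, had 8.39 ± 0.865 CPM (SD, n = 5) against 7.91 ± 1.01 CPM (SD, n = 7). Slc1a7, the glutamate transporter EAAT5 of the retina, had at most 0.385 CPM in any mouse and was not tested. Of 4 meningeal fibroblast markers, Dcn was called higher in edgeR (log2 fold change 1.87, adjusted p = 6.38e-05), and the sum of the 4 was 22.4 to 34.7 CPM in the Control and 22.7 to 85.4 CPM in the EtOH mice.

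In the mitochondrial step, the glutamate carriers Slc25a18 and Slc25a22 and the aspartate/glutamate carrier Slc25a12 had log2 fold changes of 0.18, -0.01 and 0.14 (edgeR adjusted p = 0.0660, 0.912 and 0.0803). Of the enzymes that break down GABA, Abat had a log2 fold change of -0.13 and Aldh5a1 of 0.10 (edgeR adjusted p = 0.157 and 0.221). Glud1, which interconverts glutamate and 2-oxoglutarate, had 227 ± 3.25 CPM (SD, n = 5) against 225 ± 6.50 CPM (SD, n = 7).

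Among further cell type lists, 2 of 8 oligodendrocyte genes were called lower, the myelin genes Mbp and Mobp, while all 8 were lower at an adjusted p under 0.05 in edgeR, and the sum of the list was 4453 to 5916 CPM in the Control and 2982 to 5322 CPM in the EtOH mice. Of 4 choroid plexus genes tested, 3 were called higher, Ttr, Kl and Kcnj13. In edgeR 0 of 5 microglial, 0 of 3 endothelial, 0 of 4 red cell and 0 of 4 general neuronal genes were called, although 3 of the microglial and 3 of the neuronal genes were lower at an adjusted p under 0.05. Of all 16059 genes tested, 1863 were lower and 1947 higher at this adjusted p. At an unadjusted p under 0.05 these were 4 microglial genes lower, 3 neuronal genes lower and 1 higher, and 0 endothelial and 0 red cell genes. Over all genes tested 17.9% were lower and 18.6% higher at this unadjusted p.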
